A study of Mus musculus with 123 samples.

Results

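Pou5f1 and the Nanog-Dppa3-Gdf3 cluster are loci of genes that mark pluripotent mouse cells. They were read here from 3 deposited lists of histone H3 lysine 4 (H3K4) methylation peaks, named ES1, ES2 and ES3. A peak belonged to the loci when it overlapped, by at least 1 bp, a 30 kb window at Pou5f1 (mm9 chr17:35630000-35660000) or a 160 kb window that holds Gdf3, Dppa3 and Nanog (mm9 chr6:122540000-122700000). The rule found 40 of 60226 peaks. Of these ES1 gave 15 of its 26292, ES2 gave 12 of its 21543, and ES3 gave 13 of its 12391. Peaks that touched or overlapped across lists were joined, which gave 15 of the 31580 merged regions of the genome, 2 in the Pou5f1 window and 13 in the Nanog-Dppa3-Gdf3 window.

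The series measured H3K4 methylation by sequencing immunoprecipitated chromatin (ChIP-seq) from cells held in droplets: the chromatin of single cells is tagged with DNA barcodes and the tagged cells then share a single antibody step. Its labels name 123 libraries, 86 with an antibody to H3K4me2 and 37 with an antibody to H3K4me3. The cells were V6.5 mouse embryonic stem cells grown with serum and LIF (a cytokine that keeps stem cells undifferentiated), purchased mouse embryonic fibroblasts, and EML cells, a blood progenitor line. By mark and cells they form 8 groups, from 55 libraries of stem cells with the H3K4me2 antibody down to 3 of fibroblasts with the same antibody. The labels give no genotype beyond the strain and no treatment. Not given in the sources used here are the libraries, the number of cells and the mark behind each list, and how cells were assigned to it. ES1, ES2 and ES3 are therefore pooled sets without replicates, and values below describe them with no test and no p-value.

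H3K4 methylation marks the chromatin of promoters and enhancers: the trimethylated form sits at promoters, and the dimethylated form at promoters and enhancers. The lists hold no expression, so a peak here does not show that an element is in use. Pou5f1 encodes Oct4, a POU-domain transcription factor without which the pluripotent cells of the embryo do not form. Nanog encodes a homeodomain protein that sustains self-renewal and whose level varies between stem cells grown in serum. Dppa3 (Stella) encodes a maternal factor that protects DNA methylation in the early embryo, and Gdf3 encodes a secreted ligand of the TGF-beta family. On chromosome 6 the RefSeq annotation of build GRCm38.p6 orders the protein-coding genes as Apobec1, Gdf3, Dppa3, Nanog and Slc2a3, and on chromosome 17 as H2-Q10, Pou5f1 and Tcf19.

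The promoters of Pou5f1 and Nanog are shown as the DNA at the starts of these genes, and because the Nanog promoter, beside which peaks of every list lay, carries a motif that pairs the binding letters of Oct4 with those of Sox proteins. RefSeq's promoter table held 2 of the 4 genes. The 250 bases before the first listed start of each gene are given 5′ to 3′ on the + strand of GRCm38.p6, a later build than the mm9 of the peaks. They lie at chr6:122707239-122707488 for Nanog and at chr17:35505782-35506031 for Pou5f1. Capitals mark the composite octamer-Sox motif in Nanog and the GC box in Pou5f1.
Nanog: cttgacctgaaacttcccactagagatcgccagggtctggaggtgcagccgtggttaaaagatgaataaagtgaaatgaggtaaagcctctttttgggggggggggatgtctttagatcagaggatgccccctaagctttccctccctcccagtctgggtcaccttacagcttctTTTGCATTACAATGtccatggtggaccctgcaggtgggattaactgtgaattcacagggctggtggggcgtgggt
Pou5f1: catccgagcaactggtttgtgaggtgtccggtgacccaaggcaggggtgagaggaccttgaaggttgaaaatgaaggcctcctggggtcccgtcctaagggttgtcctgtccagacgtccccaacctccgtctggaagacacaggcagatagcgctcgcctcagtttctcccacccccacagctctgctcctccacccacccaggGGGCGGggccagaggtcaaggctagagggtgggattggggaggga

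The composite, searched as TTTGCATNACAATG on both strands, lay 75 to 62 bases before the Nanog start. It was found in 2 of 32851 promoters (0.00609%), and both are entries of Nanog, for its 2 listed starts. The 2 entries overlap and hold the same site. The pattern leaves a single base free, so looser forms of the composite were not counted, nor were sites beyond the 250 bases. Apart from that base its letters are those of the Nanog site, so a match in Nanog follows from the choice of pattern. A pattern this long is rarely met in 250 bases, so its share cannot be set against those of the shorter motifs below. The last 6 letters of the composite are the Sox core ACAATG, which alone was present in 10.7% of promoters. The GC box GGGCGG lay 45 to 40 bases before the first listed Pou5f1 start, and 32.7% of promoters held it. These 2 stretches held no match to the octamer ATGCAAAT (1.60% of promoters), the octamer with a free base ATGCNAAT (2.86%), the E-box CACGTG (6.02%) or the TATA box TATAAA (12.4%), each on both strands. The Nanog stretch held 3 CpG and 52.0% G+C, and 71.0% of promoters had at least as many CpG. The Pou5f1 stretch held 8 CpG and 62.0% G+C, and 43% of promoters had at least as many. The 250 bases before the other listed Pou5f1 start differed: they held no GC box but a Sox core, with 6 CpG and 45.6% G+C. The median promoter held 6 CpG. A match to letters is a description and does not show that a factor binds there.

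For each peak the lists give outer bounds, an inner interval that begins at the peak's start, and a score. Multiplying score by inner length gave whole multiples of a step fixed per chromosome and list for 60226 of 60226 peaks, within a tolerance of 0.001. A step is assumed to be a read, so the multiples are called reads here. So where the inner interval is shorter than the peak, the reads in the rest of the peak are unknown. By the same relation, within a chromosome and list the score is proportional to the reads per kb of inner interval. Read intervals are exact Poisson 95% intervals and cover counting error only. Read totals were 2441443 (ES1), 2717742 (ES2) and 2439853 (ES3), and the fewest reads behind a peak on these chromosomes was 9 in each list. A stretch without a peak thus has no measured level.

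Both loci were far more densely covered by peaks than the genome in every list. In the Pou5f1 window peaks of ES1 covered 62.7% of the bases, those of ES2 47.1% and those of ES3 30.8%, where the genome's shares were 2.43%, 1.77% and 0.865%. The window's share was thus 25.8, 26.6 and 35.6 times the genome's. In the Nanog-Dppa3-Gdf3 window the covered shares were 32.4%, 22.7% and 16.5%, or 13.3, 12.8 and 19.1 times the genome's. Of all 30 kb tiles of the genome, 0.206% were covered at least as far as the Pou5f1 window by ES1 peaks, 0.264% by ES2 and 0.234% by ES3. Of all 160 kb tiles, 0.346% (ES1), 0.637% (ES2) and 0.261% (ES3) were covered at least as far as the Nanog-Dppa3-Gdf3 window. Most tiles hold no peak: 19.8%, 16.9% and 10.8% of 30 kb tiles had one in ES1, ES2 and ES3. The windows were set around the genes, whereas the tiles were laid from the chromosome start.

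**Figure D1:**
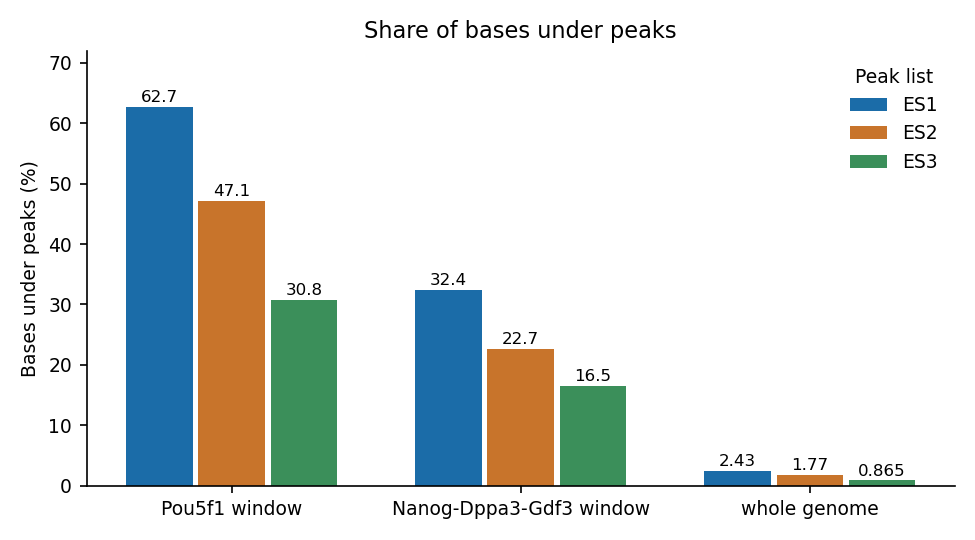
Share of bases under peaks (%, vertical axis from 0) in the Pou5f1 window, the Nanog-Dppa3-Gdf3 window and the whole genome, with a bar for each list. In each list the Pou5f1 bar is the tallest, from 62.7% in ES1 to 30.8% in ES3, and the genome bars are all at or below 2.43%.

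The order ES1, ES2, ES3 held for covered bases in both windows and in the genome as a whole. ES3 covered 0.491 times the bases of ES1 at Pou5f1 and 0.511 times in the Nanog-Dppa3-Gdf3 window, beside 0.357 times over the genome. ES2 covered 0.752 and 0.701 times the bases of ES1, beside 0.730 times over the genome. The ES3 ratio was not rare: of the 30 kb tiles with an ES1 peak, 27.1% had an ES3 ratio at least as high as that of Pou5f1, and of the 160 kb tiles 23.0% had one at least as high as that of the Nanog-Dppa3-Gdf3 window. In pooled cells, fewer marked cells and less mark per cell cannot be told apart. At Pou5f1 all 9239 bp under ES3 peaks also lay under ES1 peaks. In the Nanog-Dppa3-Gdf3 window 93.9% of the ES3 bases lay under ES1 peaks, beside 78.4% over the genome.

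Of the 15 merged regions, 9 (60.0%) held a peak of every list, beside 26.2% of all merged regions of the genome. Of the rest, 3 (20.0%) were in ES1 alone, beside 27.3% of all regions. In ES1 and ES2 but not ES3 was 1 (6.67%, beside 23.8%), and in ES1 and ES3 but not ES2 were 2 (13.3%, beside 4.95%). Each of the 15 held an ES1 peak, as did 82.2% of all regions. The 9 regions in every list were wide, with a median span of 8371 bp (2354 to 11388), beside 3474 bp for all regions of the genome found in every list. The other 6 had a median span of 1786.5 bp (501 to 5166). Span and presence in every list moved together, and the part of span in the share of 60.0% was not tested.

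Counted as peaks, 10 of 15 ES1 peaks of the loci overlapped an ES2 peak (66.7%, exact binomial 95% interval 38.4 to 88.2), beside 61.1% of all ES1 peaks. An ES3 peak was met by 11 of the 15 (73.3%, 44.9 to 92.2), beside 37.7% of all ES1 peaks. All 12 ES2 peaks overlapped an ES1 peak, beside 78.1% in the whole list, and 10 of the 12 (83.3%, 51.6 to 97.9) overlapped an ES3 peak, beside 42.7%. All 13 ES3 peaks overlapped an ES1 peak, beside 86.6%, and 11 of the 13 (84.6%, 54.6 to 98.1) overlapped an ES2 peak, beside 77.1%. The whole-list share lay below the interval for ES1 in ES3 and for ES2 in ES3, and inside it for ES1 in ES2 and ES3 in ES2. It also lay inside the interval for ES2 in ES1 (73.5 to 100) and for ES3 in ES1 (75.3 to 100). Member peaks were wider than their lists by median, and the part of width in these shares was not tested. Neighbouring peaks of a locus are not independent, and these intervals do not allow for that. When the shared bases had to make up at least 50% of both peaks, 46.7% of the ES1 members were matched in ES2 and 26.7% in ES3, beside 37.7% and 19.4% of the whole list. Of the ES2 members 58.3% met an ES1 peak and 41.7% an ES3 peak, beside 46.1% and 23.5%. Of the ES3 members 30.8% met an ES1 peak and 38.5% an ES2 peak, beside 41.1% and 40.9%. Under this rule the ES3 members thus overlapped no more often than their list.

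Pou5f1, which specifies pluripotent identity, lay in a window with 2 wide marked regions in every list. ES1 and ES2 had 2 peaks each there and ES3 had 3. Inner intervals of ES1 held 168 reads (144 to 195) over 13674 bp. Those of ES2 held 102 (83.2 to 124) over 8034 bp, and those of ES3 held 92 (74.2 to 113) over 9239 bp. Within inner intervals ES1 had the most reads, and the read intervals of ES2 and ES3 overlapped. Counts covered 72.7% of the bases under ES1 peaks here, 56.9% of those under ES2 peaks and 100% of those under ES3 peaks. Totals over whole peaks are therefore unknown for ES1 and ES2, and the lists cannot be ranked by them. Per kb of inner interval the values were closer: 12.3 (10.5 to 14.3), 12.7 (10.4 to 15.4) and 9.96 (8.03 to 12.2), with overlapping intervals in all 3 lists. These densities describe different bases in each list. Pou5f1's own position on mm9 was not used here, so its peaks are placed by the window alone and are not assigned to the promoter, an enhancer or the neighbours H2-Q10 and Tcf19.

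The first Pou5f1 region spanned mm9 chr17:35638381-35648117 (9737 bp). In ES1 it was a single peak of 9622 bp, with 67 reads (51.9 to 85.1) in the first 4495 bp and a score of 13.0. In ES2 it was a single peak of 7383 bp, with 89 reads (71.5 to 110) over its whole length and a score of 9.99. In ES3 it was split into a peak of 3204 bp with 34 reads and another of 1705 bp with 15 reads. ES1 and ES2 thus called a continuous stretch where ES3 called 2 pieces. All 3 lists shared 4643 bp, of which the longest run was the first ES3 peak, chr17:35639477-35642680 (3204 bp). By width the ES1 and ES2 peaks stood in the top 2.37% and 2.63% of their lists, and the wider of the ES3 pieces in the top 11.4%.

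The second Pou5f1 region, the widest of this window, spanned chr17:35649245-35659488 (10244 bp) and began 1127 bp after the first region ended. Its ES1 peak was 9179 bp wide with 101 reads (82.3 to 123), which put it in the top 0.901% of that list by reads. ES3 had a peak of 4330 bp with 43 reads (31.1 to 57.9), the most of any ES3 peak in this window. ES2 had a peak of 6746 bp whose inner interval was 651 bp with 13 reads (6.92 to 22.2), so 9.65% of that peak carried a count. The ES2 value cannot be set against the other lists for that reason. The stretch shared by all 3 lists was chr17:35652743-35655393 (2651 bp). The first 8381 bp of the window held no peak in any list.

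**Figure D2:**
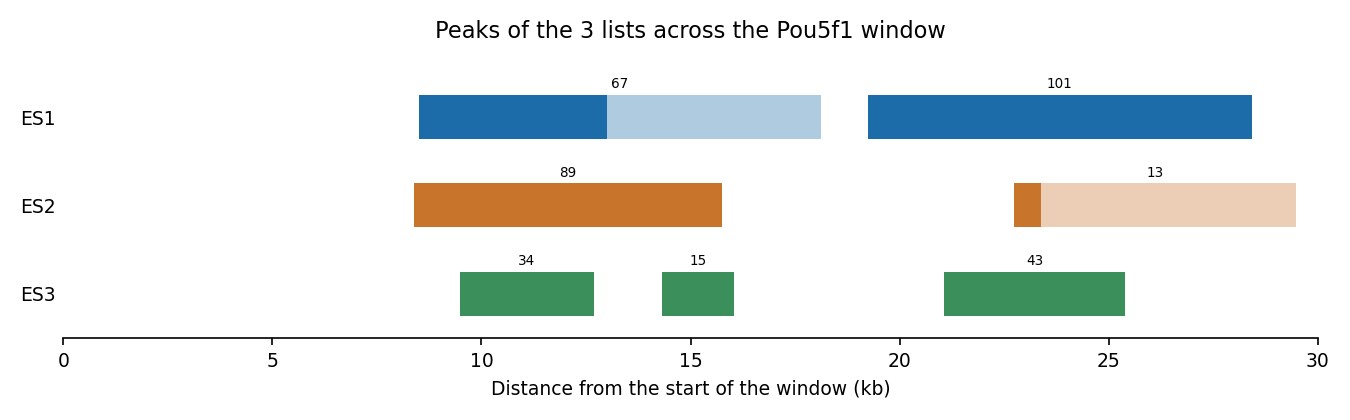
Peaks of ES1, ES2 and ES3 (rows) in the Pou5f1 window, by distance from the start of the window (kb). Pale bars are whole peaks, dark bars their inner intervals, and the number above a bar is its reads; the ES3 row shows the earlier region as 2 pieces with 34 and 15 reads.

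The ES1 and ES2 peaks at Pou5f1 ranked between the top 2.37% and 3.32% of their lists by width, but between the top 29.2% and 84.6% by score. The Pou5f1 scores lay between 8.37 and 16.6, beside list medians of 14.7 in ES1, 12.7 in ES2 and 12.9 in ES3. As the score follows the read density of the inner interval, it is not a separate measure of these peaks. When ES1 and ES2 were shortened to the 12391 peaks of ES3 by score, ES1 kept 0 and ES2 kept 1 of their 2 Pou5f1 peaks, where 47.1% of all ES1 and 57.5% of all ES2 peaks were kept. When they were shortened by reads to the same lengths, ES1 kept 2 and ES2 kept 1.

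Nanog, the self-renewal factor, carried a marked region at its start in every list and a marked region at its far end in ES1 and ES2. The gene spans mm9 chr6:122657507-122664651 (7145 bp), the same length as in RefSeq on GRCm38.p6, and reads from its low-coordinate end. ES1 peaks covered 60.8% of this span, ES2 peaks 26.5% and ES3 peaks 7.22%. A stretch of 2687 bp inside the gene, chr6:122658646-122661332, was under no peak of any list.

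The region at the Nanog start spanned chr6:122650275-122658645 (8371 bp), from 7.2 kb before the start to 1.1 kb past it. ES1 had a peak of 6743 bp that ran 1138 bp past the start, with 51 reads (38.0 to 67.1) in its first 2053 bp. ES3 had a peak of 5885 bp that ran 515 bp past the start, with 27 reads (17.8 to 39.3) in its first 1775 bp. ES2 had 2 peaks, of 3513 bp with 46 reads (33.7 to 61.4) and of 1758 bp with 25 reads (16.2 to 36.9). The ES2 call was the one that did not reach the gene: its later peak ended 192 bp before the start. By distance to the start, the composite motif printed above lay between the end of that ES2 peak and the Nanog start, and ES1 and ES3 peaks ran on past it. This sets distances in different builds side by side, and a peak edge that rests on 25 reads carries no stated error.

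Of the ES1 regions found in every list this had the highest density, 24.8 reads per kb of inner interval (18.5 to 32.7). Its interval overlapped those of some other ES1 regions, such as 23.6 (14.9 to 35.4) at Gdf3, so the rank is not firm. The score of 25.3 was the highest of the ES1 member peaks. In ES2 the density was 13.5 (10.5 to 17.0) and in ES3 15.2 (10.0 to 22.1). The ES1 interval lay above that of ES2 and overlapped that of ES3. The inner intervals cover different bases, the first 2053 bp of the peak in ES1 and whole peaks in ES2. No inner interval of any list lay over the Nanog start at 122657507, and that of ES1 ended at 122653955. No density was thus measured at the start itself. The ES3 peak was the widest ES3 peak of either window, in the top 2.07% of its list. All 3 lists shared 3408 bp in 2 pieces, of which the longer was the later ES2 peak (1758 bp).

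The region at the far end of Nanog spanned chr6:122661333-122666498 (5166 bp), from 3.8 to 9.0 kb past the start. The ES1 peak was 5049 bp wide with 52 reads (38.8 to 68.2). ES2 had 2 peaks with 18 and 33 reads, together 51 (38.0 to 67.1) over 3481 bp. The counts of ES1 and ES2 were thus alike within counting error, but over different lengths and not scaled to the read totals of the lists. Per kb they were 10.3 (7.69 to 13.5) in ES1 and 14.7 (10.9 to 19.3) in ES2, with overlapping intervals. ES3 had no peak here, and its nearest peak to the Nanog end was 6629 bp away, the peak at the Nanog start. Of the 15 regions it was the only one in ES1 and ES2 but not ES3.

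Dppa3, the maternal factor, had a narrow marked region in every list. It spanned chr6:122576339-122578692 (2354 bp) and was the narrowest of the 9 regions in every list. ES1 had 18 reads (10.7 to 28.4) in a peak of 1256 bp, ES2 22 (13.8 to 33.3) in a peak of 2354 bp, and ES3 12 (6.20 to 21.0) in the first 725 bp of a peak of 1200 bp. The counts overlapped within their intervals. The ES2 peak lay over the Dppa3 position of 122576400, and those of ES1 and ES3 began 344 bp and 997 bp above it. That position is rounded. The stretch shared by all lists was 603 bp.

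Gdf3, the secreted ligand, lay largely under a single peak of each list. Its span, near chr6:122555400-122560100, was 82.6% covered by ES1, 82.8% by ES2 and 57.2% by ES3. The region spanned chr6:122556210-122561045 (4836 bp). ES1 had a peak of 4346 bp with 23 reads (14.6 to 34.5) in its first 976 bp. ES2 had a peak of 4836 bp with 62 reads (47.5 to 79.5) over 4823 bp, in the top 2.11% of that list by reads. ES3 had a peak of 2688 bp with 25 reads (16.2 to 36.9). ES2 and ES3, counted over whole or nearly whole peaks, had 12.9 (9.86 to 16.5) and 9.30 (6.02 to 13.7) reads per kb, with overlapping intervals. ES1 and ES2 peaks ran 462 bp and 945 bp past the high-coordinate end of the gene, and the ES3 peak stopped 846 bp before it. The tables used here give no strand for Gdf3, so its ends are named by coordinate.

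**Figure D3:**
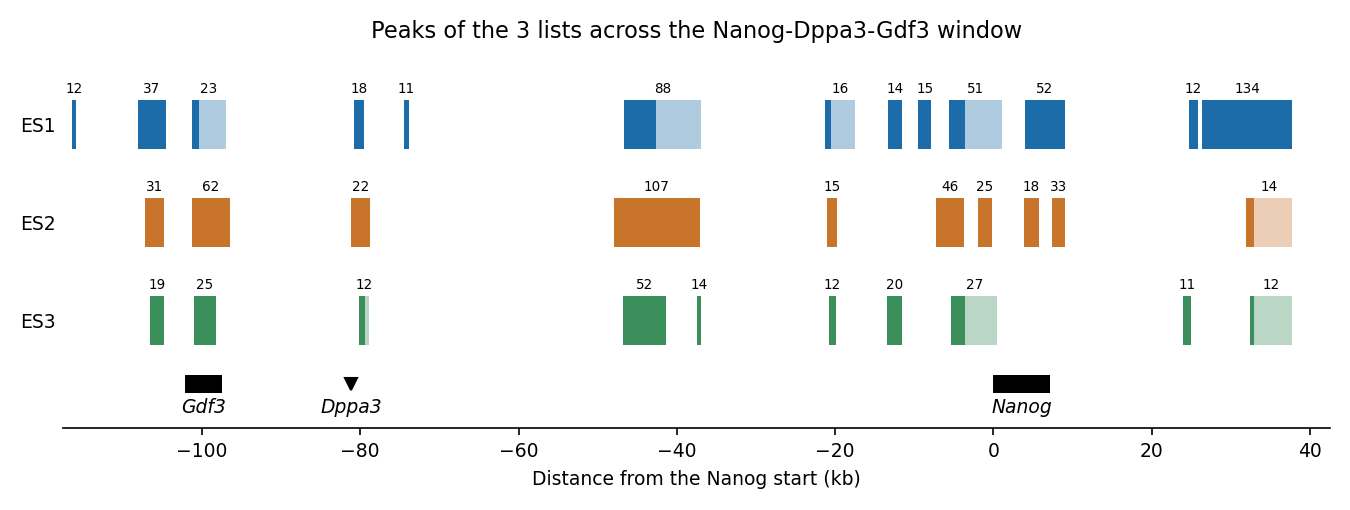
Peaks of ES1, ES2 and ES3 (rows) in the Nanog-Dppa3-Gdf3 window, by distance from the Nanog start (kb), with the genes as black bars and the Dppa3 position as a triangle. Pale bars are whole peaks, dark bars inner intervals and numbers the reads; the ES3 row is empty over the far end of Nanog, where ES1 has 52 reads and ES2 has 18 and 33.

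Of the 13 regions in this window 4 lay at the member genes, and the other 9 held some of the widest peaks. The region from 48 to 36.9 kb before the Nanog start, chr6:122609552-122620623 (11072 bp), was in every list. It lay between Dppa3 and Nanog, which RefSeq lists as adjacent protein-coding genes. In ES1 it was a peak of 9843 bp with 88 reads (70.6 to 108) in its first 4120 bp. ES2 had a peak of 10829 bp with 107 reads (87.7 to 129), in the top 0.840% of its list by width and 0.367% by reads. ES3 had 2 peaks, of 5366 bp with 52 reads and of 501 bp with 14, together 66 (51 to 84.0). Within inner intervals, ES2 and ES3 thus had more reads here than in any other region of the 2 windows. Some other regions were counted over a small part of their peaks. In the widest region of this window the counted part was 989 of 5840 bp in ES2 and 537 of 5250 bp in ES3. Totals over whole peaks therefore cannot be ranked. The lists shared 5649 bp, with a longest run of 5333 bp at chr6:122610781-122616113. The ES1 density of 21.4 reads per kb (17.1 to 26.3) lay above those of ES2, 9.88 (8.10 to 11.9), and ES3, 11.2 (8.70 to 14.3), but covers only the first part of the ES1 peak.

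The widest region of the window lay on the other side of Nanog, from 26.4 to 37.8 kb past its start, at chr6:122683892-122695279 (11388 bp). ES1 had a peak of 11386 bp, the widest of either window in any list, with 134 reads (112 to 159) over its whole length. No other inner interval of the 2 windows held as many reads. Other wide ES1 peaks were counted in part, such as 4120 of 9843 bp with 88 reads, so their totals are unknown. The peak of 11386 bp stood in the top 1.49% of ES1 by width and 0.418% by reads. ES2 had a peak of 5840 bp with 14 reads (7.65 to 23.5) in its first 989 bp, and ES3 a peak of 5250 bp with 12 reads (6.20 to 21.0) in its first 537 bp. The ES2 and ES3 peaks lay in the later part of the ES1 peak, and all 5250 bp of the ES3 peak were in every list. Slc2a3, a glucose transporter gene, follows Nanog in the RefSeq order, but its mm9 position was not used here and the region is not assigned to it.

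The remaining regions in every list were smaller. The region from 108.1 to 104.5 kb before the Nanog start, beyond the low-coordinate end of Gdf3, had 37 reads (26.1 to 51) in ES1. It had 31 (21.1 to 44.0) in ES2, and 19 (11.4 to 29.7) in ES3. Here the inner intervals filled the peaks (99.7% of it in ES3), and the densities of 10.2, 13.0 and 10.6 reads per kb overlapped within their intervals. The region from 21.2 to 17.4 kb before the start had 16 ES1 reads (9.15 to 26.0), 15 ES2 reads (8.40 to 24.7) and 12 ES3 reads (6.20 to 21.0). The ES1 reads cover the first 731 bp of a peak of 3780 bp. Those of ES2 and ES3 cover whole peaks of 1288 and 877 bp. The ES1 count is thus not a total for its peak and cannot be set against the others as one.

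**Figure D4:**
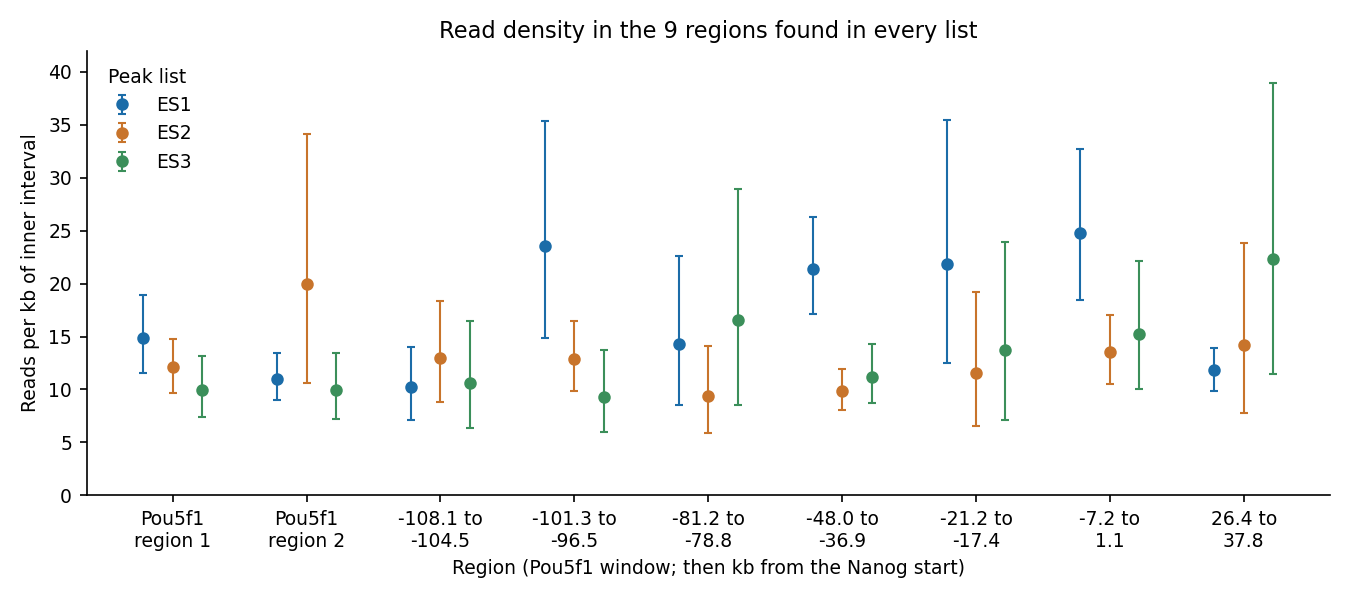
Reads per kb of inner interval (vertical axis from 0) in the 9 regions found in every list, with exact Poisson 95% intervals; horizontal positions are the 2 Pou5f1 regions and then kb from the Nanog start. The ES1 and ES2 intervals do not overlap in 2 regions, that at the Nanog start and that from 48 to 36.9 kb before the start. They overlap in the other 7 regions, and wide intervals belong to short inner intervals. Inner intervals cover different bases in each list.

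The 5 regions of the cluster not yet described held between 11 and 20 reads in each list that called them. ES1 alone had peaks from 116.4 to 115.9 kb before the Nanog start (12 reads), from 74.5 to 73.8 kb (11 reads) and from 9.5 to 7.8 kb (15 reads). ES1 and ES3 had peaks from 13.5 to 11.5 kb before the start, with 14 (7.65 to 23.5) and 20 (12.2 to 30.9) reads, and from 24.0 to 25.9 kb past it, with 12 and 11. In the latter the overlap was slight, 18.0% of the ES1 and 21.0% of the ES3 peak. These counts stand close to the fewest reads behind any peak on the chromosome, so a missing peak in another list does not show a lower level there. The longest stretch without a peak in any list was 25.9 kb, chr6:122583680-122609551, between Dppa3 and the wide region 48 kb before Nanog.

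Within each list the peaks of the 2 windows were wider than the list as a whole. Median widths were 3780 bp for the 15 peaks of ES1, 2952 bp for the 12 of ES2 and 1913 bp for the 13 of ES3, beside 1684, 1660 and 1517 bp. Peaks of 5 kb or more were 6 of 15 in ES1 (40.0%, beside 9.95% of the list), 4 of 12 in ES2 (33.3%, beside 6.96%) and 3 of 13 in ES3 (23.1%, beside 3.59%). Median reads were 23, 28 and 19, beside 16, 16 and 14. Median scores were 13.0, 11.6 and 10.5, each below its list's median. By their medians the members were thus wider and had more reads than their lists, and their scores were lower. Those scores follow the read density of the inner interval and are not a measure apart from reads and length.

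**Figure D5:**
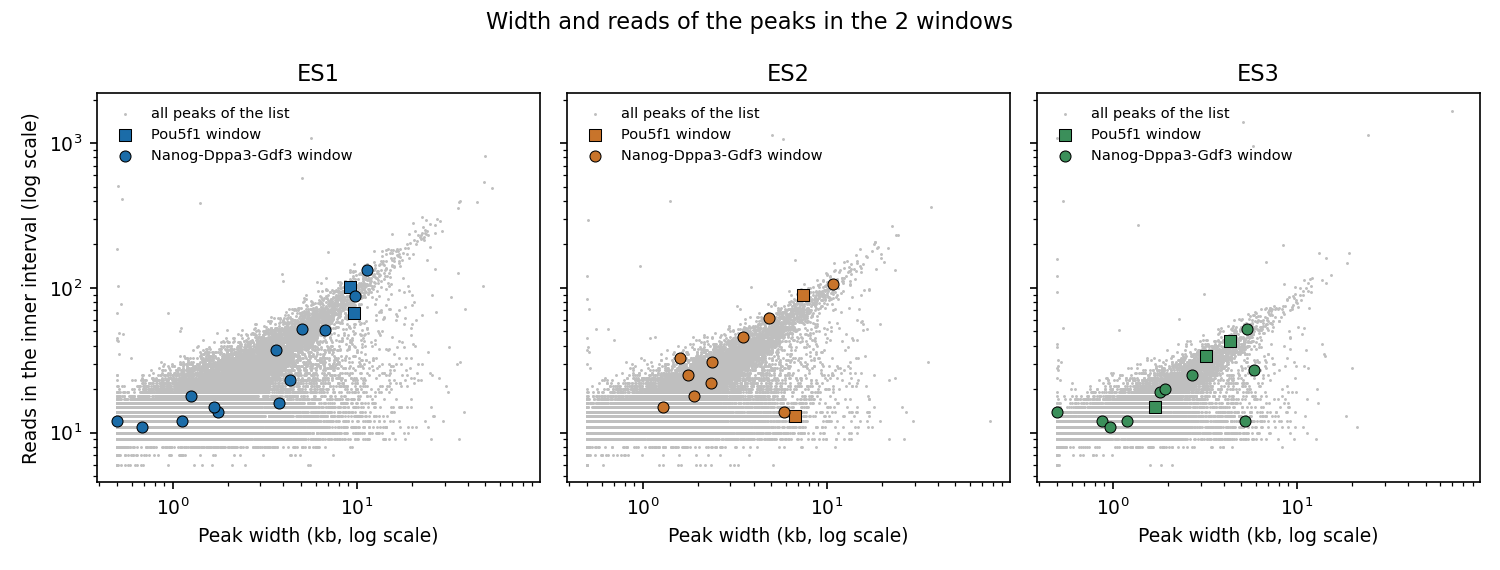
Width (kb, log scale) and reads in the inner interval (log scale) of all peaks of each list (grey) and of the peaks in the Pou5f1 window (squares) and the Nanog-Dppa3-Gdf3 window (circles). Members run from the narrow end (501 bp) to 11386 bp, and those far below the upper band, such as the ES2 peak of 6746 bp with 13 reads, have inner intervals shorter than the peak.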

How the data were processed

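The 3 peak lists were used as the authors deposited them, and each gives a score per peak with no stated unit. Per the submitters' processing notes, Bowtie aligned the reads to mm9; no version is named. What the peak caller was, and whether duplicates were filtered, was not given in the sources used here. Columns name no sample, so no list could be tied to libraries.

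Reads per peak were recovered as the whole multiple described above, and the recovery, overlaps and merging were tested on simulated data. Coordinates are 1-based. Peaks overlapped at 1 bp or more, and a peak counted as at a gene position within 1 kb of it. Intervals are exact (Clopper-Pearson for shares, Poisson for reads) at 95%. Genome shares use 20 chromosomes and 2639 Mb, the chromosome lengths being those recovered from the scores. The genes named were the 4 members and reference neighbours; every merged region is given, with full values for regions in every list and the widest per window. Members and lists were chosen with earlier results of these data known. Alternatives were other windows, overlaps, shortened lists, inner intervals and reads scaled to the list's total. Promoters came from RefSeq GRCm38.p6; no coordinate was converted between builds. Python 3.11.15, numpy 2.4.6, pandas 2.3.3 and scipy 1.17.1 were used.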

Additional observations from a re-analysis of the deposited data

How the results depend on the processing

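Of 111 values that an alternative could move, 73 moved less than their criterion (1.5 times for counts and covered bases, the 95% interval for reads and shares, any change for a peak at a position) and 38 moved more. Widening the windows by 10 kb gave 5 Pou5f1 peaks in ES1 and 4 in ES2. Shortening ES1 and ES2 to 12391 peaks by score left at Pou5f1 0 peaks, 0 bp and 0 reads in ES1 and 1 peak, 6746 bp and 13 reads in ES2. In the Nanog-Dppa3-Gdf3 window it left 6 peaks, 25892 bp and 201 reads in ES1 and 4 peaks, 12702 bp and 118 reads in ES2. Member overlaps were then 16.7% (ES1 in ES2, beside 42.7% of all peaks so shortened), 66.7% (ES1 in ES3, 37.2%), 40.0% (ES2 in ES1, 43.5%), 80.0% (ES2 in ES3, 42.1%), 38.5% (ES3 in ES1, 39.7%) and 23.1% (ES3 in ES2, 43.8%), over 6, 5 and 13 members of ES1, ES2 and ES3. Shortening by reads left 1 Pou5f1 peak of 7383 bp in ES2, and 7 peaks with 403 reads of the Nanog-Dppa3-Gdf3 window in ES1. Fewer peaks remain by construction. Inner intervals alone covered 8034 bp at Pou5f1 in ES2 and 17144 bp in the Nanog-Dppa3-Gdf3 window in ES3. Per 1000000 reads of the list, Pou5f1 had 68.8, 37.5 and 37.7 reads in ES1, ES2 and ES3 and the Nanog-Dppa3-Gdf3 window 198, 137 and 83.6, in another unit. With 50% of both peaks shared, overlaps were 26.7% (ES1 in ES3, beside 19.4% of all peaks), 58.3% (ES2 in ES1, 46.1%), 41.7% (ES2 in ES3, 23.5%), 30.8% (ES3 in ES1, 41.1%) and 38.5% (ES3 in ES2, 40.9%).

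Counting a peak at a position only when it lay over it left 0 peaks at the Nanog start in ES2, the Nanog end in ES2, Dppa3 in ES1 and ES3, the low-coordinate end of Gdf3 in ES1 and ES2 and its high-coordinate end in ES3. Within 5 kb, ES3 gained 1 peak at the low-coordinate end of Gdf3. Among peaks of its chromosome the widest ES3 member stood in the top 1.80%. Tiles shifted by 0.5 of their length, an alternative chosen after seeing the data, moved none of the 6 tile shares out of its 95% interval. No paired analysis was possible because each name has 1 list and no list is tied to libraries. The depth behind a list limits small peaks: a member with 12 reads has an interval of 6.20 to 21.0.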

Other observations

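Peaks just outside the windows were not members. Within 10 kb of the Pou5f1 window, ES1 and ES2 each had a peak at nearly the same place, 1992 bp and 1967 bp before it, with 19 and 16 reads. ES1 and ES2 each had another peak farther out on that side, 6038 bp and 6315 bp away with 12 and 21 reads. ES1 had a peak 6971 bp past the far end with 11 reads, and ES3 had none within 10 kb. Near the Nanog-Dppa3-Gdf3 window the single such peak was one of ES1, 8428 bp before it with 10 reads.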
